A study of Mus musculus with 3 samples.

Results

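The mitochondrial chromosome of the mouse carries 37 annotated genes, and all 37 are rows of the deposited files, out of 49452 rows in each file. They were chosen by position alone, as the rows whose locus lies on chromosome MT, and divide into 13 mRNA genes, 2 rRNA genes and 22 tRNA genes. The position of each of the 37 was the same in GENCODE M21 (GRCm38, mm10).

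The RNA came from back-skin epidermis of 7-week-old wild type C57BL/6 mice in second telogen, the resting phase of the hair cycle. Cells were sorted with antibodies to CD34 and Itga6 into 3 groups. S are suprabasal bulge stem cells (CD34+ with low Itga6), B are basal bulge stem cells (CD34+ with high Itga6), and N are non-stem cells (CD34-). All groups share a step in which the epidermis was freed with thermolysin (0.25 mg/ml, 1 h). RNA of 4 mice was pooled for each group and made into 1 library, so there is no replicate error and no test, and every difference below describes these 3 libraries. Mitochondrial DNA content and the number of mitochondria were not measured.

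Mitochondrial DNA is transcribed from both strands as long precursors that cover many genes. The tRNAs lie between most of the rRNA and mRNA genes, and their excision frees the neighbouring RNAs, which is why they are described as punctuation marks. The 13 proteins are all core subunits of oxidative phosphorylation: complex I (NADH dehydrogenase), complex III (cytochrome bc1), complex IV (cytochrome c oxidase) and complex V (ATP synthase). Their partner subunits, and every protein that transcribes, processes and translates mitochondrial RNA, are encoded in the nucleus. Bulge stem cells are known for a metabolism that leans on glycolysis.

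Levels are scaled FPKM, the deposited FPKM (fragments per kilobase of transcript, relative to sequencing depth) divided by a factor per library, 0.928 for S, 0.987 for B and 1.11 for N. Log2 ratios compare scaled FPKM plus 1 in pairs of libraries. A gene was called when such a ratio reached 1 or -1, which is 2-fold after the addition of 1. The depth was 32.6, 34.0 and 36.8 M fragments in S, B and N. Cd34, which defines the first gate, was at 214 in S, 144 in B and 0.200 in N. Krt15, the classical keratin of the bulge, was at 3620 in S, 1844 in B and 1008 in N. Itga6 was at 32.9 in S, 49.0 in B and 114 in N, so N was highest for the RNA of the second gate's antigen. The gate read the protein with an antibody, and these values do not measure protein. Of the paired keratins of basal cells, Krt14 had 12.7 in S, 275 in B and 585 in N, while Krt5 had 954 in S, 805 in B and 813 in N. Krt1 and Krt10, keratins of differentiating cells, were lowest in S: Krt1 had 13.3 in S, 139 in B and 256 in N, and Krt10 had 55.6 in S, 232 in B and 370 in N. Krt14, Krt1 and Krt10 were thus lowest in the library where the mitochondrial genes were highest, and their part in the results was not tested. Markers of leukocytes, fibroblasts, endothelium, melanocytes, blood and muscle, 11 in all, summed to 3.64 in S, 2.63 in B and 2.82 in N, with 2, 2 and 4 of them at 0 and Cd3e highest at 1.17 in N. Muscle rests on Myh4 alone, at 0 in each library, and Acta1, also planned for muscle, is not in these sums. In bulk libraries such as these, fewer cells of a type and less RNA per cell cannot be told apart. The S library also differs from the others by a single mitochondrial tRNA row of very high value.

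Of the 22 tRNA genes, 21 were listed at 0 in all 3 libraries. The exception was mt-Tl1, which encodes the tRNA for leucine that reads UUR codons. Its deposited FPKM was 1686680 in S, and it was listed at 0 in B and in N. It is the longest of the tRNA genes at 75 bases, the length of a sequencing read, while the others span 59 to 71 bases. Over the whole of the files, 0 of the 953 rows shorter than 75 bases had a value above 0 in any library. Of the 39 rows of exactly 75 bases, mt-Tl1 in S was the only value above 0. No level is therefore given for the other tRNAs, and no fold for mt-Tl1. The part of read length in these values was not tested.

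The sequence of mt-Tl1 is shown because that row alone outweighs all other rows of its library together. It starts at the base after the end of mt-Rnr2, the large rRNA gene, whose last 30 bases are printed with it. Capitals mark the anticodon, at bases 36 to 38 of the tRNA.
end of mt-Rnr2 (chromosome MT, 2646 to 2675, plus strand): atacgtacaccctctaacctagagaaggtt
mt-Tl1 (chromosome MT, 2676 to 2750, plus strand): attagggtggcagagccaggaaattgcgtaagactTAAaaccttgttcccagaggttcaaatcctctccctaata

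The 13 mRNA genes fell into a high and a low set with a wide gap between them. The low set held mt-Co2, mt-Atp6, mt-Co3, mt-Nd3 and mt-Nd4l, 5 genes, with levels of 0.549 to 28.1 in any library. The other 8 ranged from 206 to 9483, so that the lowest value of the high set was 7.33-fold above the highest value of the low set. The same 5 genes were low in S, in B and in N.

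These 5 genes share a feature of their sequence. Each is matched over 98.99% to 99.87% of its length by an annotated nuclear transcript, at 99.71% identity for mt-Nd3 and 100% for the others. The matching transcripts are pseudogenes on the minus strand of chromosome 1, within bases 24611535 to 24616197, where 7 near-identical copies of mitochondrial genes lie side by side. None of the other 8 mRNA genes had an annotated nuclear transcript of at least 99% identity over 90% of its length. A full copy means such an annotated transcript throughout. mt-Atp8, of the high set, lies between mt-Co2 and mt-Atp6 on the mitochondrial chromosome. The stretch between the copies of these 2 genes, from base 24614651 to 24614885, holds no transcript found here. Whether it carries an unannotated copy of mt-Atp8 was not examined. A partial one lies there for 2 of them, mt-Nd4 over 63.6% of its length (Gm28439) and mt-Co1 over 31.3% (Gm29216). The division by copies was made after the levels had been seen, only annotated transcripts were searched, and how reads with several matches were counted is not given in the sources used here. The part of the copies in the low values was not tested.

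The first 75 bases, a read length, of a low gene and of a high gene are printed beside their nuclear copies to show how close the copies are. Capitals mark bases that differ within a pair. mt-Co3 and Gm28437 differ at 0 of the 75 bases, and mt-Cytb and Gm11410 at 5.
mt-Co3 (chromosome MT, 8607 to 8681, plus strand): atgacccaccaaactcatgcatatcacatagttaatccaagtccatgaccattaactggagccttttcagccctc
Gm28437 (chromosome 1, 24613897 to 24613971, minus strand): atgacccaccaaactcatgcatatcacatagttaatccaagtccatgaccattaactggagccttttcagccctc
mt-Cytb (chromosome MT, 14145 to 14219, plus strand): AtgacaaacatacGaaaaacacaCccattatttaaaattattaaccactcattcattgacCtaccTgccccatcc
Gm11410 (chromosome 4, 80003989 to 80004063, plus strand): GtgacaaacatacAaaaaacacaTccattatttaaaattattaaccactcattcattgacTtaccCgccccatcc

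**Figure D1:**
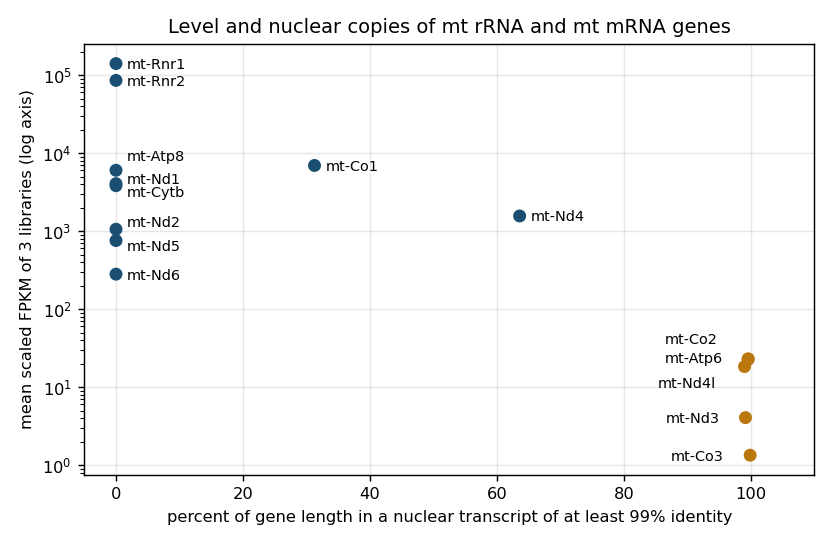
Mean scaled FPKM of the 3 libraries (log axis) for 13 mRNA and 2 rRNA genes. The other axis is the percent of each gene's length found in an annotated nuclear transcript of at least 99% identity. Unannotated copies were not searched. The 5 genes at the right edge, with 98.99% to 99.87% of their length copied, had means of 1.34 to 23.1, and every gene further left had a mean of 281 or more.

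The rows of the nuclear copies themselves were low and differed between libraries from copy to copy. Gm28437, the copy of mt-Co3, was at 0.0539 in S, 0 in B and 56.3 in N. Gm29216, the partial copy of mt-Co1, was at 6.37 in S, 108 in B and 3.93 in N. Gm10222, the copy of mt-Nd4l, was at 0.256 in S, 12.3 in B and 0.181 in N. Each of these 3 was high in a single library, Gm28437 in N and the others in B. The copy of mt-Co2, Gm28661, was at 1.42 in S, 0.406 in B and 15.8 in N. The rows of Gm28439 (6.36, 0.0840 and 2.15 in S, B and N) and Gm10925, the copy of mt-Atp6 (2.99, 0.0584 and 1.84), were lowest in B. Of the copies of lower identity, 4 reached 1 in some library, the highest being Gm13341 (mt-Co2) at 3.55 in S, 2.30 in B and 3.21 in N. Gm13340 (mt-Co1) was at 2.28 in S, 1.83 in B and 1.32 in N. Gm4076 and Gm11407, both of mt-Nd5, lay between 0.414 and 1.46. With the levels of copies of at least 95% identity over at least 200 bases added to their genes, the 5 low genes reached at most 56.9, still below the 8 others.

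Neighbouring mRNA genes overlap in 4 places. mt-Atp8 and mt-Atp6 share 43 bases, mt-Nd4l and mt-Nd4 share 7, mt-Atp6 and mt-Co3 share 1, and mt-Nd5 and mt-Nd6 share 14 on opposite strands. The shared stretch of the ATP synthase pair is printed in capitals, because mt-Atp8 is in the high set and mt-Atp6 in the low set.
end of mt-Atp8 (chromosome MT, 7910 to 7969, plus strand): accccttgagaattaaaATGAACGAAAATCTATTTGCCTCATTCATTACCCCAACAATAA
start of mt-Atp6 (chromosome MT, 7927 to 7986, plus strand): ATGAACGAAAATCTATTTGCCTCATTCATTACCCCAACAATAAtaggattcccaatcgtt

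Apart from mt-Tl1 in S, the 2 rRNA genes had the highest levels on the chromosome. mt-Rnr1, the small ribosomal subunit RNA (bases 70 to 1024), was at 182132 in S, 123049 in B and 116015 in N. mt-Rnr2, the large subunit RNA (bases 1094 to 2675), was at 102797 in S, 73042 in B and 80368 in N. S was highest for both, while B and N lay close together, B above N for mt-Rnr1 and below it for mt-Rnr2. The fold of S over N was 1.57 for mt-Rnr1 and 1.28 for mt-Rnr2, and that of S over B was 1.48 and 1.41. Neither gene reached 2-fold in any comparison. Within each library the FPKM ratio of mt-Rnr1 to mt-Rnr2 was 1.77 in S, 1.68 in B and 1.44 in N, a measure that needs no scaling between libraries. Of the summed deposited FPKM without tRNA genes, the 2 rRNA genes held 38.4% in S, 32.3% in B and 28.5% in N. That total keeps other short rows, with a value of up to 44193 in S, 32235 in B and 150512 in N. Their part in the order of these shares was not tested. The summed scaled FPKM of the 2 rRNA genes was 284929 in S, 196091 in B and 196384 in N.

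**Figure D2:**
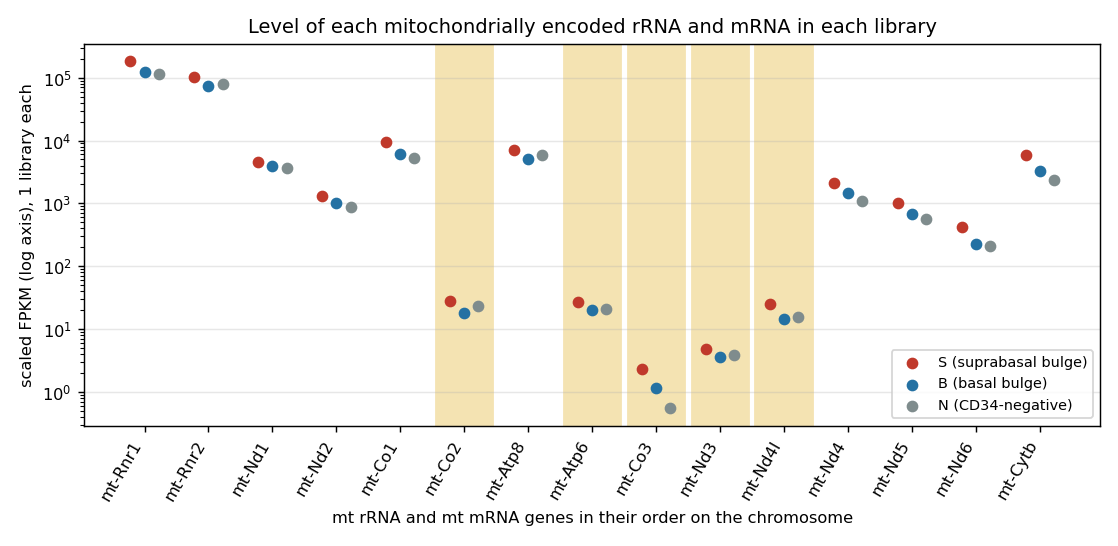
Scaled FPKM (log axis) of the 2 rRNA and 13 mRNA genes in S, B and N, 1 point per library, in the order of the genes on the chromosome; shading marks the 5 genes with a full near-identical nuclear copy. S is the highest of the 3 points for all 15 genes, and the shaded genes lie far below their neighbours.

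All 13 mRNA genes and both rRNA genes had their highest scaled level in S when their own rows alone were read. With the levels of the nuclear copies added, 11 of 13 mRNA genes were above 0 for S over N, mt-Co2 was highest in N (33.1 in S, 20.4 in B and 42.4 in N) and mt-Nd4l in B (25.3 in S, 26.8 in B and 15.6 in N), and mt-Co3 was highest in N. For S over N the median log2 ratio of the 13 mRNA genes was 0.66, against 0.02 over the 11580 genes measured (mean scaled FPKM of at least 1). The call was met upward by 3 of 13 mRNA genes, mt-Cytb, mt-Nd6 and mt-Co3, against 9.57% of all genes measured, and downward by 0, against 10.9%. Of these, mt-Co3 passed the filter on the mean only through S, the library where it is high, so its call is a description that supports nothing. As deposited, without scaling, 1 of 13 met it, mt-Cytb. All 13 were above 0 under each of 5 scalings, with a median 0.59 to 0.66 above that of all genes, which scaling itself moved to between -0.18 and 0.10. The median over the 8 genes without a full copy was 0.85, with calls for 2 of 8. All 13 genes passed the filter on low values, mt-Co3 with a mean of 1.34.

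Cytochrome b is the only subunit of complex III made in mitochondria, and its gene had the largest log2 ratio of the 13 for S over N, 1.33. mt-Cytb (bases 14145 to 15288) was at 5820 in S, 3317 in B and 2321 in N. The S level was 2.51-fold that of N and 1.75-fold that of B. It was the 3rd most abundant protein coding gene in S, the 5th in B and the 10th in N. The genes above it included mt-Atp8 in each library, and Lars2 in B (8319) and in N (3235). The levels of these genes are uncertain or unexamined, as given below.

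Of complex IV, mt-Co1 (bases 5328 to 6872) encodes the catalytic subunit and was at 9483 in S, 6146 in B and 5176 in N. It was the most abundant protein coding gene of the S library and ranked 2nd in B and in N. The gene above it was Lars2 in B (8319) and mt-Atp8 in N (5778), so its change of rank rests on those rows. S was above both other libraries, by 1.83-fold over N and 1.54-fold over B. The other 2 subunits of the complex have nuclear copies: mt-Co2 was at 28.1 in S, 17.7 in B and 23.4 in N, and mt-Co3 at 2.31 in S, 1.16 in B and 0.549 in N. The mt-Co3 values rest on about 42.9, 23.9 and 13.9 fragments in S, B and N, a counting SD of 15.3%, 20.4% and 26.8%. Its log2 ratio of 1.10 for S over N, which is among the 3 calls, rests on the fewest fragments of the 3, and with the level of Gm28437 added N was the highest library.

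Complex I takes 7 of its core subunits from mitochondrial DNA, 5 of them without a full nuclear copy. mt-Nd1 (bases 2751 to 3707) was at 4610 in S, 3936 in B and 3627 in N, the smallest spread of the high genes. mt-Nd2 (bases 3914 to 4951) was at 1291 in S, 1007 in B and 871 in N. These first genes after the rRNAs had log2 ratios of 0.35 and 0.57 for S over N. mt-Nd4 (bases 10167 to 11544) was at 2147 in S, 1451 in B and 1091 in N, a log2 ratio of 0.98 for S over N, just short of the call. mt-Nd5 (bases 11742 to 13565) was at 1012 in S, 684 in B and 572 in N. The S level of mt-Nd5 was 1.77-fold that of N. mt-Nd6 (bases 13552 to 14070) is the only mRNA gene on the minus strand, and was at 413 in S, 223 in B and 206 in N. Its log2 ratio for S over N was 1.00, at the threshold, and for S over B it was 0.89, the highest of the 13. Whether reads kept their strand is not given in the sources used here, and without it mt-Nd6 reads cannot be told from those of the opposite strand's precursor. The copied genes mt-Nd3 (4.78 in S, 3.61 in B and 3.80 in N) and mt-Nd4l (25.0, 14.5 and 15.4) had the same order of S above N above B. mt-Nd3 rests on 21.7 to 28.7 fragments, a counting SD of 18.7% to 21.5%.

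Of complex V, mt-Atp8 (bases 7766 to 7969) was at 7187 in S, 5084 in B and 5778 in N, the highest FPKM of a protein coding gene in the N library. It is the shortest of the mRNA genes at 204 bases, and the effective length that FPKM divides by is small at that size. The mean fragment length was 172, 170 and 164 bases in S, B and N. The level and rank of mt-Atp8 therefore depend strongly on the fragment length of each library and are uncertain, and no fragment count is given for it. mt-Atp6, its overlapping neighbour, was at 26.6 in S, 20.4 in B and 21.0 in N. Both ATP synthase genes had log2 ratios close to 0.32 for S over N, 0.31 for mt-Atp8 and 0.33 for mt-Atp6.

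Between the bulge layers, all 13 mRNA genes were higher in S than in B, by log2 ratios of 0.23 (mt-Nd1) to 0.89 (mt-Nd6). With copies added it was 12 of 13, the exception being mt-Nd4l. The median was 0.57, against 0.06 over all genes measured. Upward calls numbered 0 of 13, against 3.89% of all genes measured, and downward calls 0 of 13, against 5.94%. With S and B rescaled to the same total without tRNA genes, 12 of 13 were higher in S, and the median of all genes moved to -0.17.

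With the scaling used here, the log2 ratio between B and N was smaller in size than that of S over either for 12 of 13 mRNA genes, all but mt-Co2. With each library at the same total without tRNA genes this order did not hold, the median being 0.30 for B over N and 0.28 for S over B. That total keeps other short rows, the highest of them in N, and their part was not tested. The median log2 ratio of B over N was 0.12, against -0.04 over all genes measured, with 8 of 13 mRNA genes above 0 and 5 below. In either direction 0 of 13 met the call, against 7.25% of all genes measured upward and 7.1% downward. The highest log2 ratios were those of mt-Cytb (0.51), mt-Co3 (0.48) and mt-Nd4 (0.41), and the lowest that of mt-Co2 (-0.38). As deposited, without scaling, 6 of 13 were above 0 and the median was -0.05, so no direction is given for B over N. S over N and B over N share the N library, and S over B and B over N the B library.

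**Figure D3:**
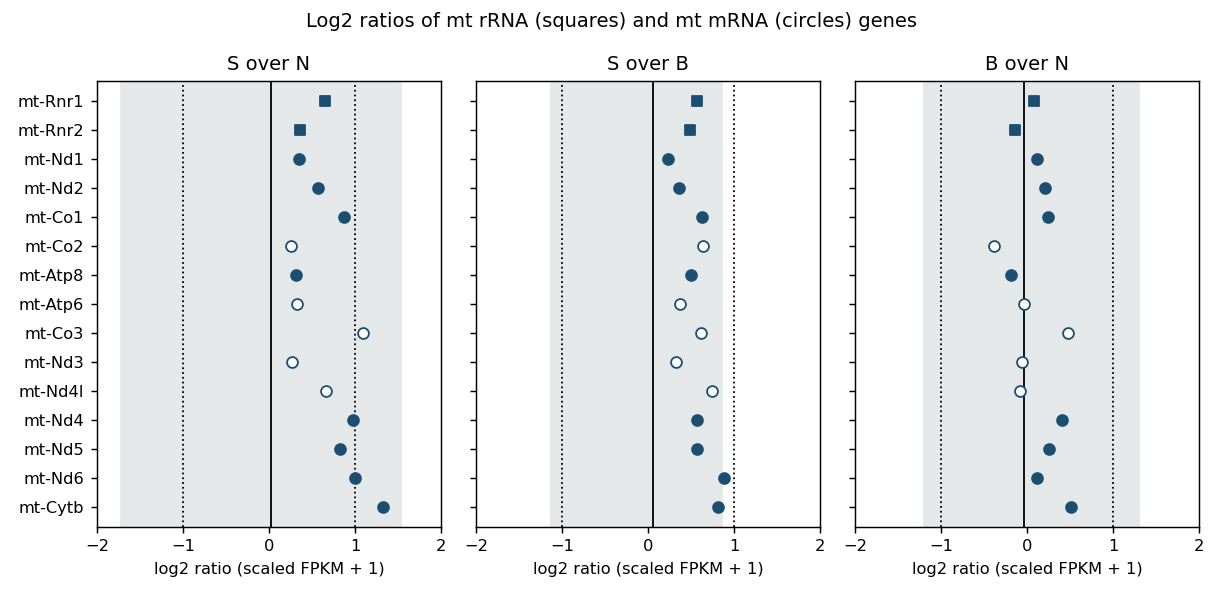
Log2 ratios of scaled FPKM plus 1 for 2 rRNA genes (squares) and 13 mRNA genes (circles, open where a full near-identical nuclear copy exists) in 3 comparisons. The solid line is the median of all 11580 genes measured, the grey band their 5th to 95th percentile and the dotted lines the call at 1 in size; all genes lie right of the median for S over N and for S over B, and they lie on both sides for B over N.

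The make-up of the mitochondrial mRNA was compared within libraries, where scaling plays no part but fragment length does. Of the summed FPKM of the 8 mRNA genes without a full copy, mt-Cytb made up 18.2% in S, 15.2% in B and 11.8% in N. mt-Atp8 had the opposite order, at 22.5% in S, 23.3% in B and 29.4% in N. Its FPKM depends strongly on the fragment length of each library, since the gene has 204 bases, and it is part of the sum behind every other share. How far it sets the orders of these shares was not tested. mt-Nd1 was also lowest in S, at 14.4%, against 18.0% in B and 18.5% in N. mt-Co1 held 29.7% in S, 28.1% in B and 26.4% in N, and mt-Nd2, mt-Nd4, mt-Nd5 and mt-Nd6 each held less than 7%. The FPKM ratio of mt-Cytb, the last mRNA gene on the plus strand, to mt-Nd1, the first, was 1.26 in S, 0.843 in B and 0.640 in N. For mt-Nd6 to mt-Nd5, neighbours on opposite strands, it was 0.408 in S, 0.326 in B and 0.360 in N. S had the highest value of both ratios.

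**Figure D4:**
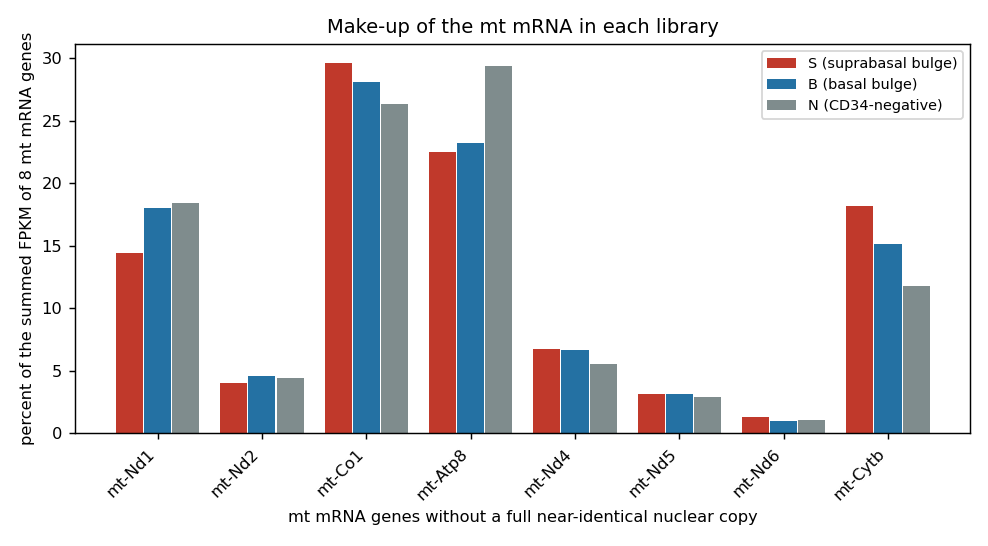
Share of each of the 8 mRNA genes without a full near-identical nuclear copy in their summed FPKM, in percent, in S, B and N (1 library each). mt-Cytb takes 18.2%, 15.2% and 11.8%, and mt-Atp8 22.5%, 23.3% and 29.4%, in S, B and N. The short gene mt-Atp8 depends on the fragment length of each library and is part of the sum for all shares.

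Taken over a library, mRNA of the mitochondrial chromosome held 13.6% of the summed FPKM of protein coding genes in S, 9.99% in B and 8.27% in N. Without tRNA genes in the total, it held 4.32% of all FPKM in S, 3.61% in B and 2.86% in N. That total keeps other short rows, with a value of up to 150512 in N, and their part was not tested. Its sum was 32049 scaled FPKM in S, 21904 in B and 19706 in N. The rRNA to mRNA ratio of the summed FPKM was 8.89 in S, 8.95 in B and 9.97 in N, close in S and B and higher in N. Genes of complex I held 29.7% of the mRNA sum in S, 33.4% in B and 32.4% in N. The mRNA sum includes mt-Atp8, so these shares and ratios also vary with fragment length.

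Nuclear genes that act on mitochondrial RNA were read against the same shares of all genes measured: 9.57% upward and 10.9% downward for S over N, 3.89% and 5.94% for S over B, and 7.25% and 7.1% for B over N. Of 17 measured genes for transcription and replication of mitochondrial DNA, 0 met the call in any of the 3 comparisons, and their median log2 ratio was 0.32 for S over N, 0.00 for S over B and 0.08 for B over N. Polrmt, the mitochondrial RNA polymerase, was at 5.86 in S, 2.99 in B and 3.92 in N. Tfam, which packages mitochondrial DNA and starts its transcription, was at 4.08 in S, 4.33 in B and 2.56 in N. Neither reached 2-fold between any pair of libraries on the log2 scale used. Tfb2m, the initiation factor that opens the promoter, was at 22.1 in S, 16.1 in B and 22.5 in N, and Tefm, an elongation factor, at 4.47, 5.29 and 5.79. Polg, the replicative polymerase, was at 6.50 in S, 7.04 in B and 7.25 in N. Its accessory subunit gene Polg2 had the largest log2 ratio of the list for S over N, 0.80, at 11.1 in S, 6.38 in B and 5.96 in N.

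Of 32 measured genes for processing, stability and decay of mitochondrial RNA, 1 met the call, downward for S over N, where 10.9% of all genes did. That gene was Alkbh1, a demethylase of tRNA, at 6.23 in S, 8.87 in B and 14.0 in N. Lrpprc and Slirp encode the partners of a complex that stabilises mitochondrial mRNA. Lrpprc was at 6.72 in S, 5.70 in B and 7.45 in N, and Slirp at 39.4 in S, 49.9 in B and 79.2 in N. Slirp was thus lowest in S, where the mitochondrial mRNAs were highest, with a log2 ratio of -0.99 for S over N. Fastk, which is needed for mt-Nd6 mRNA, was at 6.77 in S, 5.11 in B and 3.31 in N. Its link to the level of mt-Nd6 was not tested.

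Of 82 measured mitochondrial ribosomal protein genes the median log2 ratio was -0.01 for S over N and 0.04 for S over B. Mrps18b alone met the call, downward for S over N and for B over N, at 6.61 in S, 6.46 in B and 16.2 in N. Of 13 translation factor genes, Mtrf1l, a release factor, met it upward for S over N (7.63 in S, 6.06 in B and 3.06 in N), and 1 of 13 is near the 9.57% of all genes. Of 18 measured genes in the list of aminoacyl-tRNA synthetases, Lars2 was the single gene past 2-fold, upward for B over N. That 1 of 18 is near the 7.25% of all genes. Lars2 charges the leucine tRNAs and was listed at 5695 in S, 8319 in B and 3235 in N. The other genes of the list picked by the same rule, Gatc among them, lay between 4.82 and 17.2. What that row counts was not examined further.

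Among 10 measured regulators of mitochondrial gene expression, Ppargc1a met the call upward for S over N and S over B. For S over N, 1 of 10 is near the 9.57% of all genes, and for S over B the share of all genes was 3.89%. It encodes the coactivator PGC-1alpha, known to raise mitochondrial biogenesis, and was at 8.39 in S, 1.58 in B and 1.46 in N. The log2 ratio was 1.93 for S over N and 1.86 for S over B. Ppara, a nuclear receptor gene of fatty acid oxidation, was the other call, downward for S over N, where 10.9% of all genes met it. It was at 0.284 in S, 1.18 in B and 1.89 in N, all low. Ppara passed the filter on the mean only through N, the library where it is high, so its call is a description that supports nothing. Gabpa, which encodes a factor that binds promoters of nuclear respiratory genes, was at 23.9 in S, 16.7 in B and 21.5 in N. The median of the list was 0.04 for S over N, 0.17 for S over B and -0.38 for B over N.

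The nuclear subunits of oxidative phosphorylation had another order. Of 77 measured, 0 met the call for S over N, where 9.57% of all genes did upward and 10.9% downward, and 52 lay below 0, with a median log2 ratio of -0.20. For B over N it was -0.21, with 2 genes lower, against 7.1% of all genes (Ndufb6 at 32.7 in S, 30.7 in B and 63.7 in N, Uqcrq at 76.9 in S, 67.8 in B and 142 in N), and for S over B 0.04, with 1 lower, against 5.94% (Cox6b2 at 0.587 in S, 2.89 in B and 1.85 in N). Their summed level was 5607 in S, 5428 in B and 6749 in N, highest in N, while that of the mitochondrial mRNA was highest in S. Of 6 measured mitophagy genes, 0 met the call in any of the 3 comparisons. Upward and downward, 9.57% and 10.9% of all genes measured met it for S over N. The shares were 3.89% and 5.94% for S over B, and 7.25% and 7.1% for B over N. With 6 genes, a count of 0 cannot be told from such shares. Pink1, a kinase that marks damaged mitochondria, was at 9.19 in S, 8.86 in B and 6.39 in N.

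**Figure D5:**
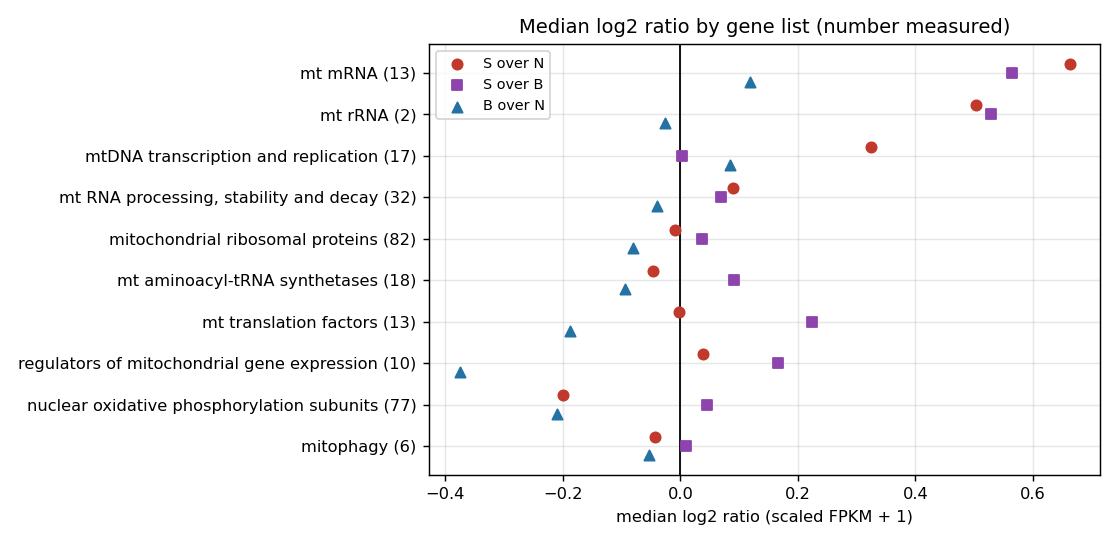
Median log2 ratio of scaled FPKM plus 1 for mitochondrial mRNA and rRNA genes and for 8 lists of nuclear genes, with the number of genes measured in brackets. The mitochondrial mRNA medians of 0.66 for S over N and 0.57 for S over B are the highest in their comparisons, and the nuclear oxidative phosphorylation subunits are at -0.20 and 0.04.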

How the data were processed

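The authors deposited FPKM values per Ensembl gene, 1 file per population. The unit stands in the column names of S and N; that of B gives the population only, and its values were read as FPKM. The submitters' processing notes name TopHat2 2.0.12, Cufflinks 2.1.1, DESeq2 and mm10 without a role, and the treatment of reads with several matches is not given in the sources used here. Per the labels' protocols, RNA was preamplified from poly(T) and random primers, and read pairs had 75 bases a side.

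Rows of 1 symbol were summed. Scaling factors per library were medians of ratios, taken over 18618 genes with values above 0 throughout. Measured genes (11580) had a mean scaled FPKM of 1 or more, and the pseudocount was 1. Depth and mean fragment length (172, 170 and 164 bases in S, B and N) were fitted to the steps in single-exon rows of 400 to 6000 bases. FPKM was taken as divided by row length less fragment length. The fit chose the setting with the highest share of values near a whole number of fragments. Between 98.0% and 98.5% of values below 6 fragments, the lowest left out, then lay within 0.05 of a whole number. Without steps 10% would at a fixed setting, so the share after fitting is not a test of the fit. Counting SDs cover counting error only. Scripts were tested on simulated data. Mitochondrial transcripts were searched in all other GENCODE M21 transcripts with BLAST 2.17.0, and printed sequences are from GENCODE M21 (GRCm38).

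The text names all mitochondrial mRNA and rRNA genes, tRNA genes above 0, copies at 1 or more, 8 fixed nuclear genes, and examples from the 3 nuclear genes per list and comparison with the largest log2 ratio in size (mean of 5 or more). Ppara and Cox6b2 were named after their values were seen. Members and lists were chosen with earlier results of these data known. Alternatives were other scalings, pseudocounts and gene sets.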

Additional observations from a re-analysis of the deposited data

How the results depend on the processing

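With 1 library per group, no spread between replicates bounds these values, and a shift below it could not be told from noise; leaving out a library was not possible. No paired analysis was possible because each group has 1 library. A log2 value was held to have moved when it left the counting interval of the reported value (for a median, that of its middle gene), which is 0.422 wide to each side for the S over N mRNA median, set by mt-Nd4l, and far narrower elsewhere. The cause of the shifts was not tested.

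For S over N, the count of mRNA genes past 2-fold was 1 as deposited and 1 with a pseudocount of 10, against 3, and 2 to 4 under the other scalings. The S over N mRNA median, 0.66, was 0.42 as deposited, 0.46 with a pseudocount of 10, 0.57 with copies added and 0.85 without genes that have a full nuclear copy. Under 4 other scalings (as deposited, same total without tRNA genes, same total over nuclear protein coding genes, and median-of-ratios over nuclear protein coding genes with a mean of at least 5) the S over N log2 ratio was 0.39, 0.54, 0.75 and 0.62 for mt-Rnr1 and 0.10, 0.25, 0.45 and 0.33 for mt-Rnr2. In that order, S over B was 0.48, 0.28, 0.52 and 0.46 for the mRNA median, 0.48, 0.28, 0.52 and 0.46 for mt-Rnr1, and 0.40, 0.20, 0.44 and 0.38 for mt-Rnr2. B over N was -0.053, 0.30, 0.27 and 0.20 for the mRNA median, -0.086, 0.27, 0.23 and 0.16 for mt-Rnr1, and -0.31, 0.046, 0.0097 and -0.059 for mt-Rnr2. The S over B median was 0.50 with a pseudocount of 10. It was 0.62 without mt-Atp8, mt-Atp6, mt-Nd4l and mt-Nd4, which overlap by 43 or 7 bases on the same strand. mt-Co3, which shares 1 base with mt-Atp6, was kept. The B over N median was 0.21 without mt-Atp8, mt-Atp6, mt-Nd4l and mt-Nd4, and 0.23 for genes with a mean of at least 100. It was also 0.23 without genes that have a full nuclear copy, an alternative chosen after seeing the data. The mRNA share of FPKM in S was 1.25% with tRNA genes in the total, against 4.32% without; of protein coding genes it was 13.6% in S, 9.99% in B and 8.27% in N. Every S over N and S over B value above kept its direction, while those of B over N did not.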
